A study of Homo sapiens with 6 samples.

Results

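The small (40S) subunit of the ribosome is built on a precursor RNA by a large number of proteins that are absent from the finished ribosome, and 49 genes for these assembly factors were followed here. They were chosen by symbol from a list of known factors, among 26485 gene symbols with a read count, and all 49 were found. Of them, 40 act early, in the nucleolus, and 9 act late, on the pre-40S particle on its way to and in the cytoplasm. THP1 cells, a human acute myeloid leukemia line of monocytic character, were exposed for 6 h to Withaferin A (WFA), a steroidal lactone from a plant used in traditional medicine, or to its DMSO vehicle. RNA of DMSO and WFA cells was sequenced from 3 independent experiments. This gave 6 libraries, 3 per group, of 11006035 to 13872810 counted reads. The sample labels give the WFA dose as 1 mM and the study's methods give 1 μM, and the methods are followed here. All libraries come from a single cell line, and in bulk RNA a loss of expressing cells and less transcript per cell cannot be told apart. All 10 monocytic marker genes examined had more than 10 counts in every library. Their summed level was 2447 to 2992 CPM with DMSO and 2232 to 3039 CPM with WFA. Of the 10 genes 4 were lower and 2 higher with WFA, beside 24.7% lower and 25.8% higher over all tested genes. Of 10 markers of other cells, 6 never exceeded 3 counts, among them CD3E, MS4A1 and HBB, and nearly all of the summed level, 357 to 403 CPM with DMSO and 319 to 337 CPM with WFA, was PECAM1. COL1A1, a fibroblast marker, had 3, 4 and 10 counts with DMSO and 107, 106 and 135 counts with WFA. The part of these marker changes in the results was not tested.

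As background, assembly begins in the nucleolus, where the U3 small nucleolar RNA and a large set of proteins, the small subunit processome, collect on the nascent precursor of ribosomal RNA. The UTP-A complex binds first and is linked to transcription of the ribosomal genes, UTP-B and the MPP10 complex follow with U3, and helicases, nucleases and a GTPase then remodel and cut the precursor. The particle that leaves the nucleolus is exported and matures in the cytoplasm, where kinases and a last nuclease complete it. Dividing and leukemic cells need many of these factors, and their genes are known targets of MYC, which binds with its partner MAX at the E-box, the letters CACGTG.

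The promoters of the factors are shown first, since a short motif was shared by many of them. RefSeq promoter sequences, on build GRCh38.p14, were matched for 43 of the 49 genes and cover 250 bases before to 50 bases after an annotated transcript start. For 42 of the 43 genes this start lies within 2 bases of the outermost start of the gene in the RefSeq gene table. For BYSL it lies 12.7 kb inside that limit, so the BYSL stretch shown belongs to an inner start. DDX49, DDX52, MPHOSPH10, UTP23, DCAF13 and RRP12 had no entry. CACGTG, which reads the same on both strands, was present in 18 of the 43 promoters, or 41.9%. It was present in 7.43% of all 27305 promoters of this length, and in 10.2% of the 9602 promoters matched to genes tested here. Among the promoters of genes that were lower with WFA the share was 11.5%. In 16 of the 18 promoters at least 1 copy began fewer than 50 bases from the annotated start. The following stretches of 30 bases are given on the strand of the gene, with the E-box in capitals. They show the motif in early and late factors with some of the largest falls, and in TSR2, which rose.
WDR43, chr2:28894658-28894687, plus strand: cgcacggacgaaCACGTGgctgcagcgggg
CIRH1A, chr16:69132621-69132650, plus strand: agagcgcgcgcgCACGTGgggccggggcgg
RRP9, chr3:51941892-51941921, minus strand: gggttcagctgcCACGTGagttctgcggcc
RCL1, chr9:4792936-4792965, plus strand: cctgttccaaacCACGTGgacgcgtctggg
UTP20, chr12:101280083-101280112, plus strand: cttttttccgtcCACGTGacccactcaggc
BYSL, chr6:41921515-41921544, plus strand: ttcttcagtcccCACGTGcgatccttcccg
LTV1, chr6:143843354-143843383, plus strand: gtcctggggctgCACGTGtggtgaggccta
PNO1, chr2:68157885-68157914, plus strand: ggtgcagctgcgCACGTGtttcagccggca
TSR2, chrX:54440389-54440418, plus strand: ccgccgggacgtCACGTGgactggggccgg
The 18 promoters with the motif include that of AATF, which had no counts, and the median log2 fold change of the other genes with the motif was -1.17. For the 25 genes without it in this window the median was -0.86, and WDR3, with one of the largest falls, was among them. The difference between these medians was not tested. Another motif, CCGGAAG, was present in as many promoters (18 of 43), and the genes were not split by it. A match describes the letters in the window and says nothing of what bound there.

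Most of the assembly factors fell with WFA. Levels are given as CPM, read counts brought to a common library size with TMM factors, and change as the log2 fold change of WFA against DMSO from the quasi-likelihood test of edgeR with its standard error (SE). P-values were adjusted over all 12854 genes tested by the Benjamini-Hochberg method, and a gene was called at an adjusted p-value under 0.05. Of the 48 factors tested, 43 were lower and 1 was higher with WFA, and 4 were not called. Over all tested genes 24.7% were lower and 25.8% higher, or 50.5% in either direction. The median log2 fold change of the 48 was -1.05, against 0.02 over all tested genes. The fall was over 2-fold for 27 of the 48, while 5.2% of all tested genes were lower by that much. Every WFA library lay below every DMSO library for 44 of the 48, which was so for 28.5% of all tested genes, and above it for 1 of the 48 against 29.6%. The summed level of the 48 was 3968, 4070 and 4296 CPM in the DMSO libraries and 2109, 2239 and 2021 CPM in the WFA libraries of replicates 1, 2 and 3. No WFA library came near the DMSO range.

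**Figure D1:**
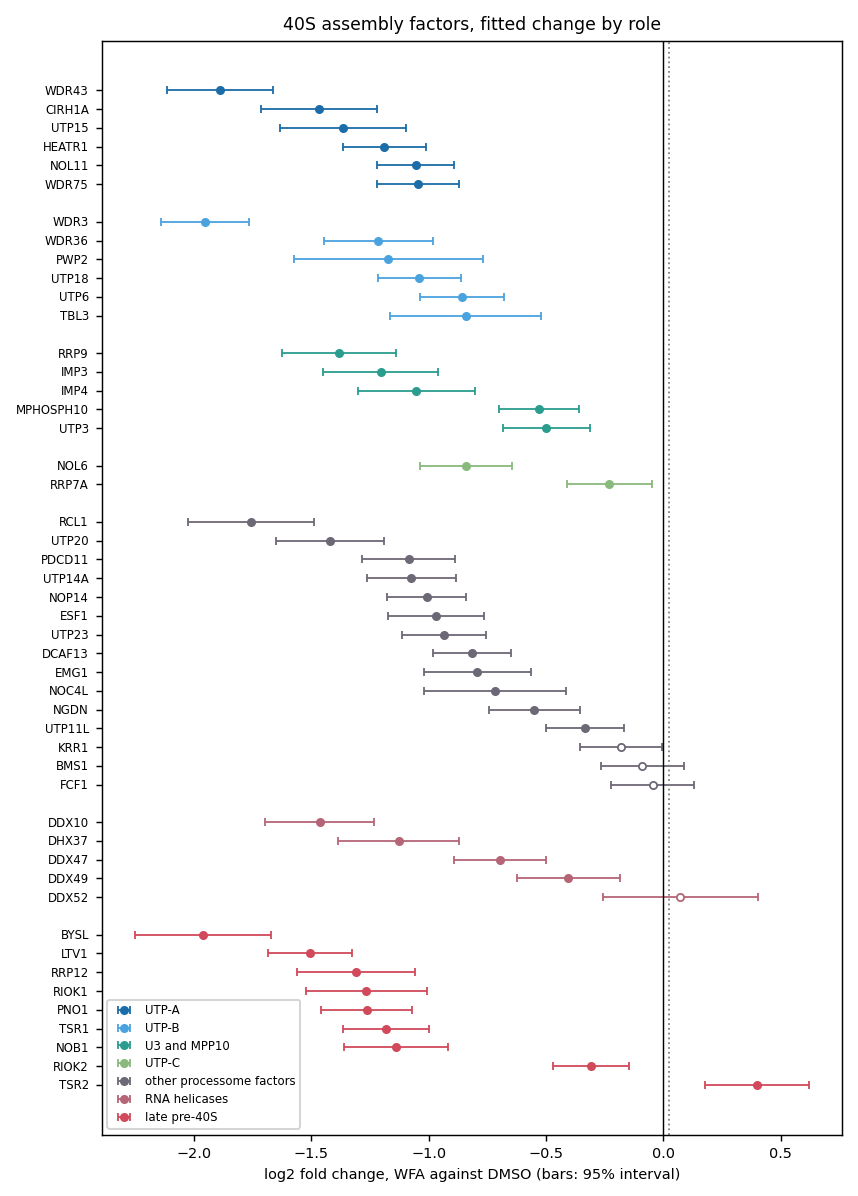
Log2 fold change of each of the 48 tested factors, WFA against DMSO, by role. Bars span the approximate 95% interval from the normal quantile. Filled points were called at an adjusted p-value under 0.05 and open points were not. The dotted line is the median of all tested genes (0.02). The falls reach -1.96 for BYSL, the 4 open points belong to KRR1, BMS1, FCF1 and DDX52, and TSR2 alone lies to the right with a filled point.

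UTP-A, the complex that opens assembly on the nascent precursor, fell as a whole. All 6 of its genes were lower and all 6 by over 2-fold, with a median log2 fold change of -1.28. For this and the role groups below, the shares over all tested genes were 24.7% lower and 5.2% lower by over 2-fold. Every WFA library lay below every DMSO library for 28.5% of all tested genes. WDR43, a WD-repeat subunit, had 153, 161 and 169 CPM in the 3 DMSO libraries and 42.1, 51.7 and 36.0 CPM in the WFA libraries. The groups were far apart, and WFA replicate 2 kept the most transcript. The log2 fold change of WDR43 was -1.89 (SE 0.11, adjusted p = 6.75e-09 by edgeR). WDR75, another WD-repeat subunit, moved least within UTP-A, from 102, 118 and 118 CPM to 54.8, 56.4 and 52.6 CPM. Its groups did not overlap either, and its log2 fold change was -1.05 (SE 0.09, adjusted p = 2.43e-07 by edgeR). Between them lay CIRH1A, also known as UTP4, at -1.47, UTP15 at -1.37, the very large HEATR1 at -1.19 and NOL11 at -1.06.

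UTP-B, the scaffold complex that binds near the start of the precursor, fell nearly as far. All 6 genes were lower, 4 of them by over 2-fold, and the median log2 fold change was -1.11. WDR3 had 203, 221 and 233 CPM with DMSO and 52.4, 62.2 and 55.1 CPM with WFA. Its mean of 219 ± 15.4 CPM (SD, n = 3) thus went to 56.6 ± 5.03 CPM (SD, n = 3), or 25.8% of the DMSO level. The log2 fold change of WDR3 was -1.95 (SE 0.10, adjusted p = 8.66e-10 by edgeR). At the other end of UTP-B was TBL3, with 25.2, 23.1 and 19.4 CPM in DMSO and 11.5, 16.0 and 10.1 CPM in WFA libraries. The groups did not overlap, and WFA replicate 2 came closest to the DMSO range. Its log2 fold change was -0.84 (SE 0.16, adjusted p = 0.000586 by edgeR). WDR36 had -1.22, PWP2 -1.17, UTP18 -1.04 and UTP6 -0.86. PWP2 was counted at only 6.58 ± 1.06 CPM (SD, n = 3) with DMSO, and its 0.950 CPM per kb of exon was the lowest level per length in UTP-B.

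The U3 and MPP10 proteins split into a steep and a shallow part. All 5 were lower, with a median log2 fold change of -1.05. RRP9, a protein of the U3 particle itself, had 29.8, 28.6 and 25.7 CPM with DMSO and 10.5, 11.4 and 10.4 CPM with WFA. The groups were separate and the WFA libraries almost equal, and the log2 fold change was -1.38 with an SE of 0.12 (adjusted p = 3.63e-07 by edgeR). IMP3 and IMP4, which help U3 pair with the precursor, had -1.21 and -1.05, though 59.3% of the exon bases of IMP3 lie opposite those of SNX33. UTP3, also called SAS10, went from 67.3, 75.1 and 73.3 CPM to 55.5, 50.2 and 46.8 CPM. This was a smaller step, with no overlap between groups, and the log2 fold change came to -0.50 with an SE of 0.09 (adjusted p = 0.000461 by edgeR). MPHOSPH10, the protein that gives the complex its name, resembled UTP3 with -0.53. For RRP9 and UTP3, 95% intervals of the log2 fold change ran from -1.62 to -1.14 and from -0.69 to -0.31.

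UTP-C, a complex that also contains casein kinase, was represented by NOL6 and RRP7A, and both were lower. NOL6 had 142, 141 and 150 CPM with DMSO and 69.2, 91.5 and 80.8 CPM with WFA, which put the log2 fold change at -0.84 with an SE of 0.10 (adjusted p = 6.35e-06 by edgeR). RRP7A had 87.5, 76.9 and 79.2 CPM with DMSO and 63.0, 72.1 and 72.8 CPM with WFA. NOL6 was well separated between groups. Those of RRP7A did not overlap but lay close together, and the log2 fold change was -0.23 with an SE of 0.09 (adjusted p = 0.0498 by edgeR). That call sat at the threshold and was lost in 6 of 12 alternative analyses, with adjusted p-values of 0.012 to 0.203 over all 12. The pseudogene RRP7BP had 149, 121 and 143 counts with DMSO and 87, 135 and 110 counts with WFA, and reads shared with it cannot be told apart here.

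The other 16 nucleolar factors ranged widely. Of the 15 tested, 12 were lower and 3 were not called, with a median log2 fold change of -0.82. RCL1, a protein related to RNA cyclases that partners the GTPase BMS1, had 47.1, 53.6 and 56.3 CPM with DMSO and 13.2, 19.1 and 14.0 CPM with WFA. RCL1 kept 29.5% of its DMSO level, without overlap of the groups, and its log2 fold change was -1.76 with an SE of 0.14 (adjusted p = 8.77e-08 by edgeR). UTP20, a large scaffold protein, followed with -1.42. PDCD11, also named RRP5 and needed for both subunits, had -1.09, UTP14A, the activator of the helicase DHX37, had -1.07, and NOP14 had -1.01. ESF1 had -0.97, UTP23 -0.94 and DCAF13 -0.82. The methyltransferase EMG1 had -0.79, NOC4L, the partner of NOP14, had -0.72, NGDN had -0.55 and UTP11L had -0.34.

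BMS1, FCF1 and KRR1 were the nucleolar factors of this set that were tested and not called. BMS1, the GTPase, had 64.2, 65.4 and 71.7 CPM with DMSO and 67.4, 60.7 and 60.8 CPM with WFA. FCF1, a PIN-domain nuclease that cuts the precursor, had 92.6, 91.1 and 101 CPM with DMSO and 101, 88.8 and 86.4 CPM with WFA. For both genes the groups overlapped. KRR1, a KH-domain protein, had 90.6, 91.7 and 96.0 CPM with DMSO and 90.0, 78.4 and 76.8 CPM with WFA, so that WFA replicate 1 lay just under the DMSO range. The log2 fold changes were -0.09 for BMS1, -0.05 for FCF1 and -0.18 for KRR1, with an SE of 0.09 each and edgeR adjusted p-values of 0.424, 0.698 and 0.101. The approximate 95% intervals ran from -0.27 to 0.09 for BMS1, from -0.22 to 0.13 for FCF1 and from -0.35 to -0.008 for KRR1. The KRR1 interval leaves out 0 although the unadjusted p-value was 0.058 by edgeR, because intervals from the normal quantile are too narrow here. GENCODE 29 lists 17 pseudogenes named after BMS1, 10 after FCF1 and 1 after KRR1. It also lists 3 for DCAF13, 2 each for IMP3 and DDX10 and 1 for LTV1, which were called lower, and how reads that fit several copies were assigned is not given in the sources used here. Their part in these values was not tested. UTP14A has an expressed copy, UTP14C, which had 701, 647 and 700 counts with DMSO and 674, 649 and 620 counts with WFA.

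AATF, which works with NGDN in the nucleolus, was listed at 0 counts in all 6 libraries and was not tested. A count of 0 allows up to 3 counts in a library, for counting error only. The gene lies at chr17:36948954-37056871 in the RefSeq annotation of GRCh38. Of the 18 protein-coding genes with an entry that overlap the stretch from 700 kb before to 700 kb after it, AATF included, 13 were at 0 in every library and 17 had fewer than 20 counts in any library. The exception was DDX52, another member, with 83 to 134 counts. Why this stretch holds so few counts was not tested, and the counts of AATF and DDX52 are therefore uncertain.

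Among the 5 RNA helicases, which unwind the precursor and release U3, 4 were lower, with a median log2 fold change of -0.70. DDX10 had 69.5, 81.9 and 87.2 CPM with DMSO and 25.5, 33.3 and 27.5 CPM with WFA, which put the log2 fold change at -1.46 with an SE of 0.12 (adjusted p = 1.32e-07 by edgeR). DHX37, the helicase that displaces U3, had -1.13, DDX47 -0.70 and DDX49 -0.40. DDX52 had 8.16, 8.92 and 8.50 CPM with DMSO and 10.9, 8.13 and 7.72 CPM with WFA. Its groups overlapped, and the log2 fold change of 0.07 (SE 0.17, adjusted p = 0.75 by edgeR) took either sign in alternative analyses.

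The late factors fell as well, with a single exception. Of 9 tested, 8 were lower and 1 was higher, 7 of the 8 by over 2-fold, and the median log2 fold change was -1.27. Beside this, 24.7% of all tested genes were lower, 25.8% higher and 5.2% lower by over 2-fold. BYSL, RRP12 and PNO1 join the particle before it leaves the nucleus. BYSL had 41.6, 42.7 and 40.9 CPM with DMSO and 8.33, 13.6 and 10.1 CPM with WFA. No WFA library was near the DMSO range, 25.6% of the DMSO level was kept, and the log2 fold change was -1.96 with an SE of 0.15 (adjusted p = 6.4e-08 by edgeR). This was the largest fall among the 48 factors, close to that of WDR3. RRP12, a HEAT-repeat protein of nuclear export, had 39.7, 45.1 and 44.2 CPM with DMSO and 14.9, 20.9 and 16.1 CPM with WFA. PNO1, the partner of NOB1, had 58.2, 57.2 and 62.6 CPM with DMSO and 24.0, 26.6 and 23.4 CPM with WFA. Neither gene had overlapping groups, and the log2 fold changes were -1.31 and -1.27 (adjusted p = 9.91e-07 and 9.86e-08 by edgeR).

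The factors that complete the particle in the cytoplasm followed. LTV1, which is removed from the particle after phosphorylation, had 177, 196 and 205 CPM with DMSO and 66.5, 72.9 and 63.8 CPM with WFA, which put the log2 fold change at -1.51 with an SE of 0.09 (adjusted p = 7.3e-09 by edgeR). With its exons totalling 1.85 kb it had the highest DMSO level per length of the 48, 104 CPM per kb of exon, and 34.8% of those exon bases also lie in another annotated gene on its strand. TSR1, a protein related to GTPases that keeps immature particles from translating, had 80.2, 79.8 and 87.2 CPM with DMSO and 36.8, 38.5 and 33.5 CPM with WFA. NOB1, the nuclease that makes the final cut of the small ribosomal RNA, had 73.9, 76.5 and 72.4 CPM with DMSO and 29.7, 40.4 and 30.9 CPM with WFA. Both were clearly separated between groups, with log2 fold changes of -1.18 and -1.14 (adjusted p = 1.01e-07 and 1.09e-06 by edgeR).

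The RIO kinases, which act on the same particle one after the other, had log2 fold changes of unlike size, a difference with no test of its own. RIOK1 had 37.2, 39.2 and 41.0 CPM with DMSO and 15.9, 19.4 and 13.3 CPM with WFA, which put the log2 fold change at -1.27 with an SE of 0.13 (adjusted p = 1.67e-06 by edgeR). RIOK2 had 77.2, 75.7 and 78.3 CPM with DMSO and 63.1, 63.1 and 60.2 CPM with WFA. The spread within each RIOK2 group was small, and the log2 fold change of only -0.31 was called lower, at an SE of 0.08 (adjusted p = 0.00579 by edgeR). The 95% intervals ran from -1.52 to -1.01 for RIOK1 and from -0.47 to -0.15 for RIOK2.

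TSR2 was the only factor that rose. It is a chaperone that hands the ribosomal protein RPS26 to the assembling particle. TSR2 had 27.0, 26.5 and 25.9 CPM with DMSO and 35.0, 30.7 and 39.2 CPM with WFA. Every WFA library was above every DMSO library, and the log2 fold change was 0.40 (SE 0.11, adjusted p = 0.00814 by edgeR), positive in each of the 3 same-numbered pairs. The call held in all 12 alternative analyses, with log2 fold changes of 0.31 to 0.49 and adjusted p-values of 0.000478 to 0.0425. RPS26, its client, had 100.6 ± 11.6 CPM with DMSO and 95.8 ± 5.96 CPM with WFA (SD, n = 3 each), which put the log2 fold change at -0.07 with an SE of 0.10 (adjusted p = 0.565 by edgeR).

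**Figure D2:**
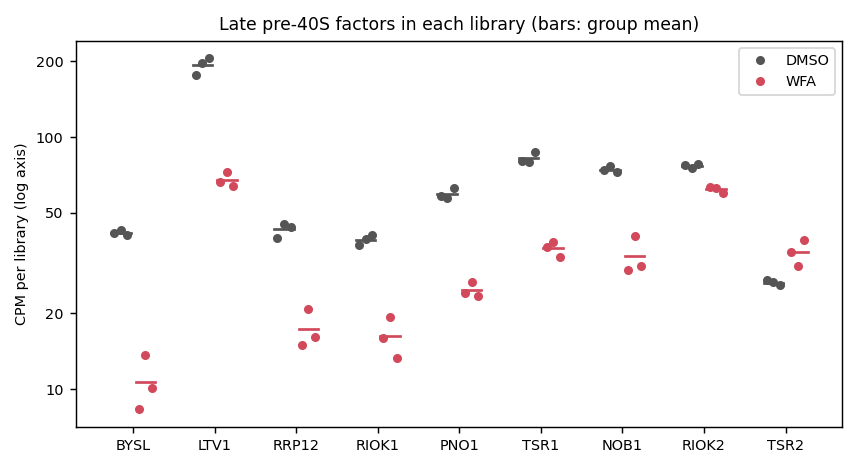
CPM of the 9 late factors in each library on a log axis; points are libraries in replicate order from left to right, short bars are group means. For 8 genes the WFA points lie under all DMSO points, by the widest margin for BYSL, and for TSR2 they lie above.

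Early and late factors were set side by side. The median log2 fold change was -1.01 over the 39 early factors tested and -1.27 over the 9 late ones, a difference of 0.26. The early median was the less negative in each same-numbered pair, by 0.27, 0.25 and 0.26 in replicates 1, 2 and 3. The ranges overlapped widely, since 8 of the early factors fell further than the late median and 7 of the late ones fell further than the early median. With the late group limited to TSR1, LTV1, NOB1, RIOK1 and RIOK2, a choice made after seeing the data, the late median was -1.18 and the difference 0.17. With all 9 late factors but without WFA replicate 3, the difference was 0.15. Since members are not replicates, this difference has no test.

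In summed levels, the early factors had 3356, 3431 and 3639 CPM with DMSO and 1815, 1913 and 1731 CPM with WFA. The late factors had 612, 639 and 658 CPM with DMSO and 294, 326 and 290.5 CPM with WFA. The late sum was 18.2%, 18.6% and 18.1% of the early sum in the DMSO libraries and 16.2%, 17.0% and 16.8% in the WFA libraries. Both sets were thus close to a 2-fold drop, and the highest late share with WFA stayed under the lowest with DMSO.

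**Figure D3:**
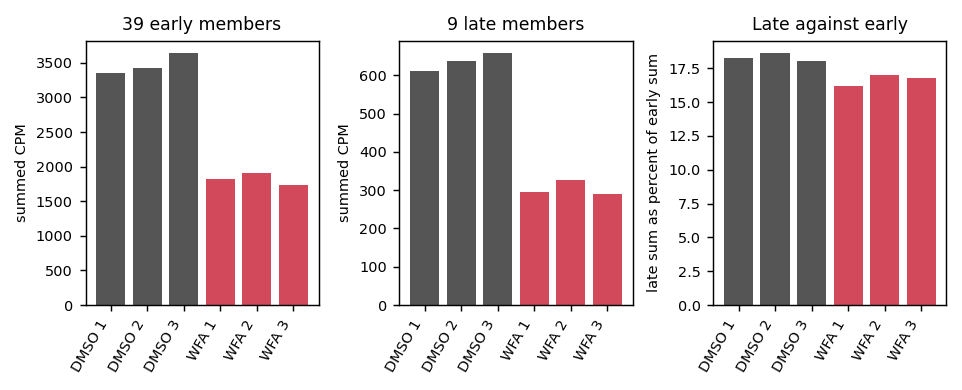
Summed CPM of the 39 early and the 9 late factors in each library, and the late sum as a percentage of the early sum; all axes start at 0. In the early panel WFA bars reach at most 1913 CPM and DMSO bars at least 3356 CPM, and the share of late factors moves only from 18.1-18.6% to 16.2-17.0%.

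The replicates differed in how far the set fell. The median log2 fold change of the 48 was -1.05, -0.86 and -1.17 in the same-numbered pairs 1, 2 and 3. For 30 of the 48 factors the fall was smallest (or the rise largest) in replicate 2. Among all 3178 genes called lower, 48.0% had their smallest fall there. The number of factors with a negative change was 44, 47 and 47 in the 3 pairs.

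The other genes of small subunit assembly, from a list drawn up by role, moved less uniformly. Of 13 further early factors 10 were lower and 1 was higher, with a median log2 fold change of -0.60. DIEXF, the human UTP25, fell most. It had 56.3 ± 0.678 CPM with DMSO and 20.1 ± 2.07 CPM with WFA (SD, n = 3 each), and the log2 fold change was -1.48. RBM19 rose with 0.37 (adjusted p = 0.00901 by edgeR). Of 8 further late factors, 6 were tested, 2 were lower and 2 were higher, with a median of -0.04. Over all tested genes 24.7% were lower and 25.8% higher, so these few late genes do not stand out by count. The methyltransferase DIMT1 had -1.11, while TRMT112, a cofactor of methyltransferases, rose with 0.44 (adjusted p = 0.00259 by edgeR).

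Assembly factors of the large (60S) subunit gave values like those of the 40S factors. Of 43 tested, 40 were lower and 0 were higher in the edgeR test, at an unadjusted p-value under 0.05 and in DESeq2 alike, with 3 not called and a median log2 fold change of -0.95. The shares over all tested genes were 24.7% lower and 25.8% higher by edgeR, for this list and the next. NOP16 marked the lower end at -2.57 and EIF6 the upper end at 0.14 (adjusted p = 0.286 by edgeR). The 40S ribosomal proteins, the parts that the factors put in place, had a median of 0.09. Of 29 tested, 0 were lower by edgeR, by an unadjusted p-value under 0.05 or by DESeq2. RPS28 was the only one called higher by edgeR, against 3 at an unadjusted p-value under 0.05 and 2 by DESeq2, with a log2 fold change of 0.39 (adjusted p = 0.023 by edgeR). RPS9 and RPS18, which every cell uses, stayed at 10 counts or fewer throughout and were not tested, so their listed counts are uncertain. Whether these lists differ from the 48 factors was not tested, and the counts describe these libraries.

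**Figure D4:**
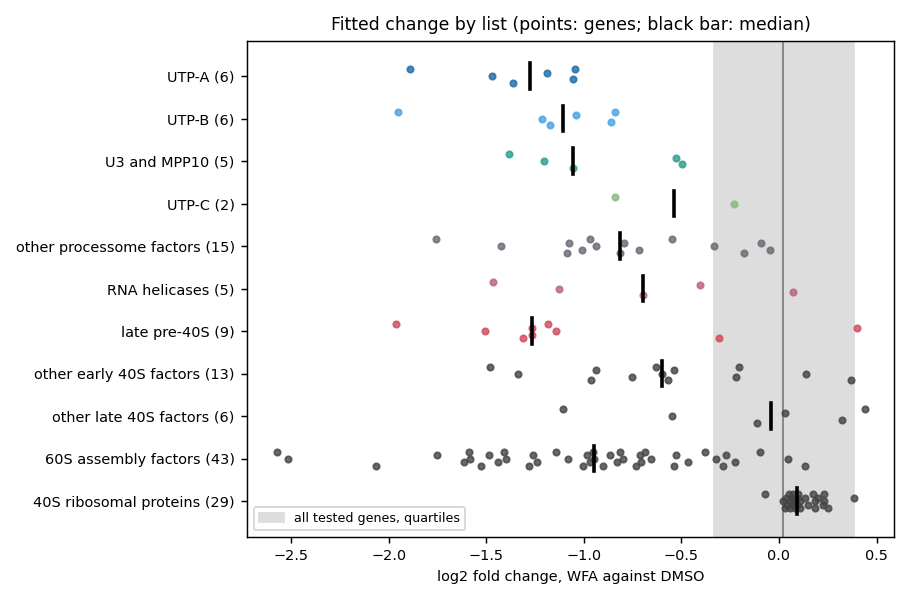
Log2 fold change of every tested gene by role group and neighbouring list, with the number tested in brackets, the list median as a black bar, and the quartile range of all tested genes in grey (-0.33 to 0.38). The medians of UTP-A (-1.28), UTP-B (-1.11) and the late factors (-1.27) lie far left of the grey band, and that of the 40S ribosomal proteins (0.09) lies within it.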

How the data were processed

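The authors deposited raw read counts per gene for the 6 libraries, without normalization. Beside them are 6 columns of scaled counts and their own comparison (fold changes, p-values and dispersions), which were not used. The submitters' processing notes name bcl2fastq 2.19, Trimmomatic, Bowtie2, Picard, featureCounts and DESeq2, and build hg38, while the annotation, the strand setting and the treatment of multiply mapped reads are not given in the sources used here. Exons of 8 members (DDX47, EMG1, HEATR1, IMP3, LTV1, NOB1, TBL3 and TSR1) lie for over 20% of their bases under another gene's exons in GENCODE 29, so their counts are less certain.

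Counts were analysed with edgeR 4.0.16 in R 4.3.3 (TMM, filterByExpr with a minimum count of 10, quasi-likelihood test, no block). A simulated set of 2-fold changes was used to test the fit on 12732 genes. Standard errors are the log2 fold change divided by the square root of F. DESeq2 1.42.0 and other scalings, filters and left-out libraries served as alternatives. The labels give samples of equal replicate number a shared string of digits, which reads like a date but is not called one. The DMSO and WFA libraries of a number shared deviations from their group means. Across genes r was 0.217, 0.333 and 0.245 for them, against -0.256 to 0.00369 for other pairs. Deviations within a group sum to 0, so positive values for same-numbered pairs push those of other pairs below 0. The contrast is therefore partly fixed in advance. No library repeated another, with a chi-square per gene of 5.67 to 10.4. An exact permutation test of 3 against 3 cannot go below p = 0.1.

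Members, roles, lists and motifs were chosen with earlier results of these data known. All 49 members are accounted for. Values per library are given for all late factors, for the largest and smallest change of each early group, and for every member that rose, was not called or was not tested. Of other lists, the genes at both ends are named, and further ones were chosen after their values were seen. NHP2L1 was read under its newer symbol SNU13. Exon lengths come from GENCODE 29. A group with 3 counts or fewer was taken as at the floor, which covers counting error only.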

Additional observations from a re-analysis of the deposited data

How the results depend on the processing

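Over 12 alternative analyses, 564 of 576 values of single factors kept their direction and their side of the threshold, and the other 12 concerned RRP7A, KRR1, FCF1 and DDX52. With the replicate block, 43 factors were lower and 1 higher, with a median log2 fold change of -1.05, and the block changed no call among the factors. That fit took the spread of each gene from all genes together (prior degrees of freedom infinite, against 10.8 in the main fit). It called more of all genes, 3708 lower and 3877 higher, so the unchanged calls are a weak check. The number lower was between 42 and 44 in all alternatives, and TSR2 was the 1 higher in each. The median was -1.13 with total counts in place of TMM, a scaling that moved the median of all genes from 0.02 to -0.06, and between -1.07 and -1.01 with a library left out. Total counts also changed the balance over all genes, with 3875 lower and 2763 higher against 3178 and 3311 with TMM. They gave a median of -0.13 for the further late factors, and KRR1 was then called lower. The difference between early and late medians was 0.15 to 0.27 with a library left out, lowest without WFA replicate 3, and 0.17 with cytoplasmic late factors alone. FCF1 ranged from -0.12 to 0.0013 with a library left out, above 0 without DMSO replicate 3 or WFA replicate 3. DDX52 had -0.014 with total counts and -0.10 to 0.16 with a library left out, below 0 without WFA replicate 1. KRR1 was called without WFA replicate 1 (-0.26). RRP7A lost its call with DESeq2 (-0.24), upper-quartile factors (-0.22) and without DMSO replicate 1 or 3 or WFA replicate 1 or 2 (-0.26 to -0.17). The cause was not tested. Medians near 0, of the further late factors and the ribosomal proteins, took either sign. AATF, RPS9 and RPS18 had too few counts to be tested and could not be compared. Why their counts were so low was not tested.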

Other observations

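Other short motifs were searched in the same 43 promoters, on both strands. The ETS-type letters CCGGAAG were present in 18 of them (41.9%), against 10.7% of all promoters and 19.5% of those matched to tested genes. The YY1-type letters AAGATGG were present in 8 (18.6%), all of them early factors, against 7.85% for tested genes. TATAAA was present in 3 (6.98%), against 5.38%. These shares describe the sequences and were not tested.

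The size of the fall showed little relation to how strongly a factor was expressed. Across the 48 factors, the log2 DMSO level per kb of exon and the log2 fold change had a Pearson r of -0.17 and a Spearman rho of -0.08, as a description over genes measured in the same libraries. DMSO levels per length ran from 0.893 CPM per kb for DDX52 and 0.95 for PWP2 to 51.2 for NOP14 and 104 for LTV1.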
